A study of Mus musculus with 12 samples.

Results

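The constitutive proteasome subunit genes were examined in 12 total RNA libraries of mouse embryonic fibroblasts. The members were all gene symbols in the deposited tables that begin with Psma, Psmb, Psmc, Psmd or Psme and end in digits, leaving out the immune or thymic forms Psmb8, Psmb9, Psmb10 and Psmb11. This rule found 39 of 23284 symbols, and it used no measured value. Of these, 38 passed the filter on low values (at least 1 RPKM, reads per kilobase of transcript relative to library depth, in at least 2 libraries). The lowest value of any tested member in any library was 8.70 RPKM, so the filter removed none of these 38 and separated only Psma8, an alpha subunit known from testis, whose highest library reached 0.977 RPKM.

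The cells were labelled 2o 1B MEFs, secondary fibroblasts of the 1B line. As background, such cells hold integrated reprogramming factors under a doxycycline (dox) promoter, and the labels list none of the factors. Cells were transfected with 1 of 3 kinds of siRNA: a control (siControl), one that targets the transcription factor c-Myc (siMyc; gene symbol Myc) or one that targets the histone acetyltransferase Gcn5 (siGcn5; gene symbol Kat2a). RNA was taken without dox or after 2 days of dox. This gives 6 groups of 2 libraries: siControl, siMyc and siGcn5, each without and with dox. All groups share the 1B line and transfection with an siRNA. The labels describe siRNA pools and single siRNAs without tying either to these libraries. Whether the 2 libraries of a group came from separate cultures is not stated either. The p-values therefore reflect library-to-library spread that could be technical.

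The proteasome is the protease that degrades proteins tagged with ubiquitin. Its 20S core is a stack of rings made of alpha subunits, which form the gate, and beta subunits, of which Psmb5, Psmb6 and Psmb7 carry the catalytic sites. The 19S regulatory particle caps the core: its base holds the Psmc ATPases that unfold substrates, its lid holds the deubiquitinase Psmd14, and other subunits bind ubiquitin. Alternative activators replace the 19S particle on some cores: Psme1 and Psme2 form the interferon-inducible PA28 alpha-beta ring, Psme3 is the nuclear PA28 gamma, and Psme4 is PA200. In fibroblasts most subunits are known as housekeeping genes, while interferon replaces the catalytic subunits by the immune forms Psmb8, Psmb9 and Psmb10.

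Library depth, recovered from the spacing of the RPKM values, was 65550425 to 188146408 gene reads, and 11596 to 12338 genes reached 1 RPKM. The knockdowns were seen in the targeted genes. Mean Myc was 19.7 RPKM in siControl against 4.69 in siMyc without dox, and 165 against 21.6 with dox. Mean Kat2a was 21.9 RPKM in siControl against 1.65 in siGcn5 without dox, and 54.4 against 7.69 with dox. Each knockdown came with a lower level of the other target in some comparisons: Kat2a was at 18.8 RPKM in siMyc with dox, and Myc was at 8.20 in siGcn5 without dox and 116 with dox. The fibroblast markers were high, with a summed level of 11280 to 11350 RPKM over 10 genes in siControl without dox. With dox this sum was 2859 to 3268 RPKM in siControl, 5688 to 5700 in siMyc and 4417 to 5157 in siGcn5. The summed level of 7 epithelial genes went from 6.77 to 7.69 RPKM in siControl without dox to 458 to 523 with dox. It reached 1131 to 1245 in siMyc with dox, where most of it was Krt14 (mean 954.427 RPKM) and Krt8 (204.242). Krt14, Krt8 and Krt18 were higher in siMyc than in siControl with dox, while Cdh1, Epcam, Krt5 and Cldn4 were lower. The higher epithelial sum in siMyc thus did not hold across the list. The fibroblast and epithelial sums moved with the comparisons that involve dox. They also differed from siControl in siGcn5 without dox, at 9132 to 9422 RPKM (fibroblast) and 36.9 to 42.7 RPKM (epithelial). The latter was mostly Krt18, with a mean of 34.138 RPKM against 6.235 in siControl without dox. In siMyc without dox the sums were 10440 to 10510 and 7.29 to 7.63 RPKM. The part of these sums in the results below was not tested. In these bulk samples, fewer cells of a type and less RNA per cell cannot be told apart.

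In siControl without dox the mean over the core genes was 145 RPKM, and that over the genes of the 19S particle was 115. Mean RPKM of the 14 core genes ran from 97.2 for Psmb5 to 189 for Psma2, and of the 17 genes of the 19S particle from 60.4 for Psmd12, a lid scaffold subunit, to 251 for Psmd8, another lid subunit. The 3 chaperones that assemble the 19S base and then leave it were lower, at 10.1 RPKM for Psmd9, 15.8 for Psmd10 and 37.9 for Psmd5. Among the activators Psme2 was at 95.1 RPKM, Psme1 at 56.2, Psme3 at 45.3 and Psme4 at 24.2. Over the 6 group means, the highest exceeded the lowest by a median of 1.68-fold across the 38 genes, and by over 2-fold in 8 of them. The highest mean was in siControl with dox for 22 genes, in siGcn5 with dox for 12, in siMyc with dox for 3 and in siGcn5 without dox for 1. The lowest was in siMyc without dox for 19 genes and in siGcn5 without dox for 12, with 3 each in siControl without and with dox and 1, Psmd9, in siMyc with dox.

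Dox was compared with no dox in siControl cells first. On the RPKM scale most of the particle was higher after 2 days of dox: all 14 core genes rose, as did 16 of 17 genes of the 19S particle and the activators Psme3 and Psme4, while Psme1 and Psme2 fell. Fold changes here and below are ratios of mean RPKM, and log2 changes are differences of mean log2(RPKM + 1), tested with limma across 13175 genes with Benjamini-Hochberg adjustment at 0.05. In all, 33 of 38 members rose and 2 fell. Over all genes tested, 74.0% passed in this comparison, 46.1% as higher and 27.9% as lower. The median log2 change was 0.49 for the core and 0.43 for the 19S genes, beside 0.17 over all genes tested.

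Within the core, the alpha ring (7 tested) had a median log2 change of 0.62, the 4 structural beta genes one of 0.43 and the 3 catalytic genes one of 0.39. Psma5, an alpha ring subunit, was at 95.4 and 104 RPKM in siControl without dox and at 192 and 207 with dox. These values did not overlap, a 2.00-fold rise (log2 change 1.00, SE 0.08, limma adjusted p = 2.04e-06). Lack of overlap is stated here and below mostly for genes named for their large change. The share of all genes without overlap is not given here, so no weight is put on it. Psmb3, a structural subunit of the beta ring, went from 164 and 173 RPKM to 294 and 278, a 1.70-fold rise (log2 change 0.76, SE 0.08, limma adjusted p = 9.64e-06). The catalytic subunits rose by 1.30-fold to 1.50-fold. Psmb5, which carries the chymotrypsin-like site, was at 98.2 and 96.2 RPKM without dox and 134 and 122 with dox (1.31-fold, limma adjusted p = 0.00109). Psmb6, which carries the caspase-like site, was at 116 and 124 RPKM against 160 and 151 (1.30-fold, limma adjusted p = 0.000796). Psmb7, which carries the trypsin-like site, was at 178 and 189 RPKM against 269 and 280 (1.50-fold, limma adjusted p = 2.52e-05). In all 3 the lowest dox library exceeded the highest library without dox.

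In the 19S particle all 6 ATPase genes rose, from 0.22 (Psmc3) to 0.70 (Psmc1) on the log2 scale, and so did the base scaffolds Psmd1 and Psmd2 and the ubiquitin receptor Psmd4. In the lid 7 of 8 genes rose, led by Psmd7, the partner of the deubiquitinase, which went from 116 and 117 RPKM to 189 and 198 (log2 change 0.73). The lid gene that did not pass was Psmd8, at 235 and 266 RPKM without dox and 225 and 238 with dox, which overlapped. Of the assembly chaperones, Psmd9 rose (log2 change 0.43), while Psmd5 and Psmd10 did not pass (0.05 and 0.14).

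The activators split. Psme3 was at 45.4 and 45.3 RPKM without dox and 88.6 and 96.7 with dox, a 2.04-fold rise (log2 change 1.01, SE 0.08, limma adjusted p = 1.25e-06). Psme2 was at 88.1 and 102 RPKM without dox and 52.1 and 53.5 with dox, 0.555 of the level without dox (log2 change -0.83, SE 0.15, limma adjusted p = 5e-04). Its partner Psme1 went from 51.9 and 60.5 RPKM to 36.9 and 38.8 (log2 change -0.56, limma adjusted p = 0.00125). The interferon-response genes moved the same way in these libraries. All 8 genes of that list were found and none was at 0 throughout (1 had a mean below 1 RPKM), and their summed level was 66.5 to 74.3 RPKM in siControl without dox and 10.0 to 11.3 with dox. Their part in the result for Psme1 and Psme2 was not tested.

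**Figure D1:**
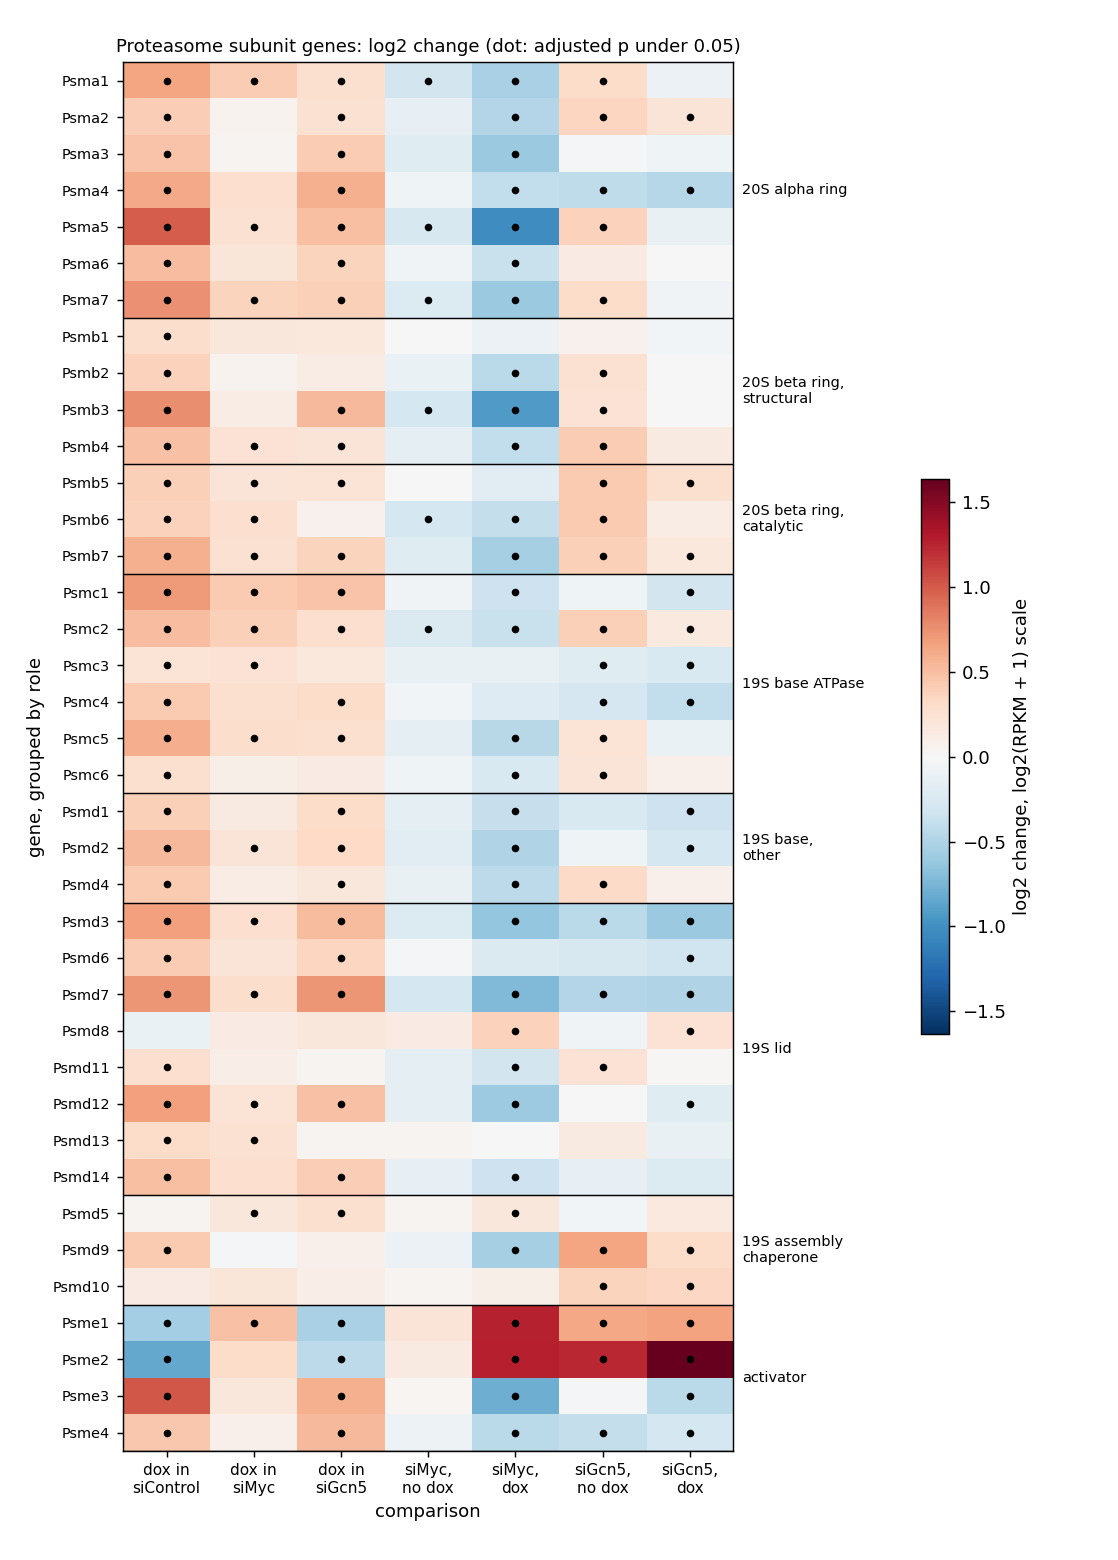
Log2 change on the log2(RPKM + 1) scale (colour) of the 38 tested subunit genes (rows, grouped by role) in 7 comparisons (columns), each between groups of 2 libraries; a dot marks a limma adjusted p under 0.05. In siControl, 33 genes rose with dox and 2 fell, and in the dox-treated cells 27 were lower with siMyc and 4 higher.

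The rise did not rest on 1 library: 31 of the 33 calls and both falls kept their call when any 1 of the 4 libraries was left out, and Psmc3 and Psmc6 lost it. It depended in size on the scaling, since RPKM scales each library to its own total. The median of all genes tested was 0.17 on the RPKM scale, 0.03 after median-ratio scaling and 0.00 after quantile normalization, and the members then had 23 higher and 3 lower, or 24 higher and 3 lower, calls. Of the 14 core genes 12 were higher under each, and of the 17 genes of the 19S particle 9 were higher after median-ratio scaling and 10 after quantile normalization, with 1 lower. That lower gene was Psmd8 (log2 change -0.29 and -0.28), and Psme4 lost its call under both. Relative to all genes the core median stayed above: 0.32 against 0.03, and 0.33 against 0.00.

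Genes that build or serve the proteasome were read from lists that hold no member. The list of 20S assembly factors includes Akirin2, which brings proteasomes into the nucleus. In this list 5 of 6 rose. Psmg4 and Psmg3, chaperones of the alpha ring, went from 10.9 to 33.7 and from 14.5 to 34.1 RPKM (log2 changes 1.54 and 1.18). All 9 proteasome-bound factors rose, led by the deubiquitinase Uchl5 (15.3 to 54.7 RPKM, log2 change 1.77) and Fbxo7 (5.79 to 10.98 RPKM, log2 change 0.82). Of 12 ubiquitin and shuttle genes 7 rose and 2 fell. The shuttle factor Ubqln4 rose (log2 change 1.17) and the autophagy receptor Sqstm1 fell (log2 change -0.87). Of 9 cofactors and subunits of the p97 segregase 6 rose and 1 fell, with the largest changes in Faf1 (0.52) and Ubxn1 (0.33). Of 9 regulators of proteasome genes 6 rose and 2 fell. Nfe2l1, the transcription factor that raises proteasome genes when the proteasome is inhibited, fell from 76.9 to 45.3 RPKM (log2 change -0.75), and Nfyc, a subunit of the factor that binds the CCAAT box, rose (0.68).

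The catalytic subunits were also set beside their immune counterparts, as the immune form's share of the summed RPKM of the pair. Psmb8 made up 3.49% and 3.65% of the Psmb8 and Psmb5 sum in the siControl libraries without dox and 0.352% and 0.460% with dox. Psmb8 fell (log2 change -1.60), although its level with dox was near 0.5 RPKM. Psmb10 moved the other way: its share of the pair with Psmb7 was 6.38% and 6.79% without dox and 17.8% and 15.7% with dox, and it rose from 12.9 to 55.1 RPKM (log2 change 2.01). Psmb9 stayed under 0.7 RPKM in these 4 libraries and did not pass (log2 change -0.02). Psmb8 and Psmb10 thus moved in opposite directions in the same libraries. Psmb11, the thymic form, did not pass the filter.

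**Figure D2:**
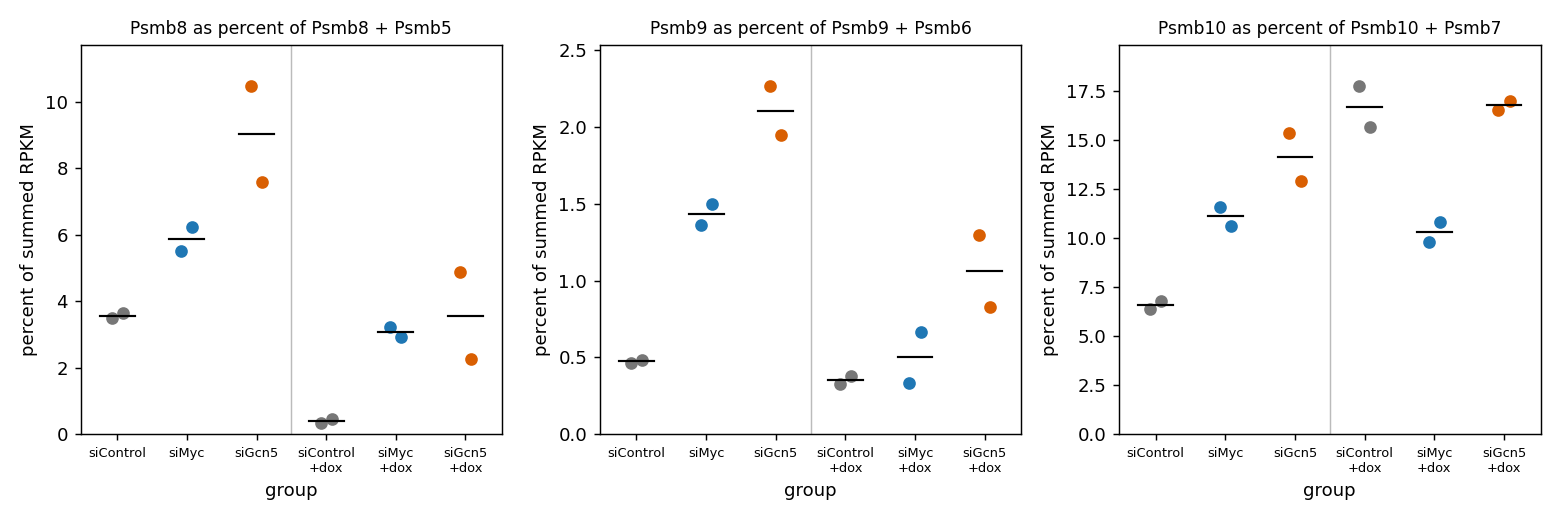
Share of the immune form in the summed RPKM of each catalytic pair (percent, vertical axis) in every library (points, with the mean of 2 as a line) of the 6 groups. Psmb8 lies at 0.352% and 0.460% in siControl with dox, while Psmb10 reaches 17.8% and 15.7% there.

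Promoter sequences of the members that moved most are shown to set the genes that rose together beside the activators that fell. RefSeq windows from 250 bases before to 50 bases after the annotated start (build GRCm38.p6, not the mm9 build of the files) were found for 32 of the 39 members. The 120 bases before the start of Psma5 (chr3:108256806-108256925, plus strand), Psmb3 (chr11:97703314-97703433, plus strand), Psme3 (chr11:101316093-101316212, plus strand) and Psme2 (chr14:55591102-55591221, minus strand) follow, with 26 bases after the start of Psme1 (chr14:55578495-55578520, plus strand), all written from 5′ to 3′ on the gene's strand. Capitals mark matches on either strand to the motifs searched below: the CCAAT box in Psmb3 and, on the other strand, in Psme3, an ETS motif and an E-box in Psme3, and the reverse complement of the interferon-stimulated element core in Psme1. The shown bases of Psma5 and Psme2 held no match. Psmb3, which rose, holds a match to the same interferon core at position -163 from its start, outside its shown bases.
Psma5: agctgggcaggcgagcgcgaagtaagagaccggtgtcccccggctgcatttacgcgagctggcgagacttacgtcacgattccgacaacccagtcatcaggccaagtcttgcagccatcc
Psmb3: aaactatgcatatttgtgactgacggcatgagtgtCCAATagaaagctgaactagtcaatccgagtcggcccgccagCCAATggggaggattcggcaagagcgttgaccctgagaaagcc
Psme3: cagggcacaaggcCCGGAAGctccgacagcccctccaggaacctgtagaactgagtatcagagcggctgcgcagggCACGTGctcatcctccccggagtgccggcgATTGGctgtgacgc
Psme2: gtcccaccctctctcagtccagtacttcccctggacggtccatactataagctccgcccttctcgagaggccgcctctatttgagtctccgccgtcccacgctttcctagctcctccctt
Psme1: agctgtgcTTTCGCTTTCccttcccg

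Both strands of the 32 windows were searched for 5 short motifs. CACGTG, the E-box that Myc and Max bind, was in 3 of 32 members (9.38%; Psma4, Psmd9 and Psme3) and in 8.09% of 27025 gene symbols with a window. CCAAT was in 12 members (37.5%) and 41.1% of all symbols. CCGGAAG, an ETS factor motif, was in 12 members (37.5%) and 9.93% of all symbols. TGACNNNGC, the core of the antioxidant response element that Nfe2l1 and Nfe2l2 bind, was in 6 members (18.8%) and 14% of all symbols. GAAANNGAAA, the core of the interferon-stimulated response element, was in 4 members (12.5%; Psmb3, Psmd4, Psmd9 and Psme1) and 3.99% of all symbols. Of the genes with E-box letters, Psme3, Psma4 and Psmd9 rose with dox in siControl, and so did most members without them. These matches describe letters in a window, and no binding was measured in the libraries used here.

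The response to dox was smaller in the cells with siMyc, among the members and over all genes tested. Of 38 members 18 rose and none fell (limma, also none at an unadjusted p under 0.05 or with voom on the recovered reads), where 44.8% of all genes passed, 28.9% as higher and 15.9% as lower. The share of members called was near that of all genes, and the split by direction was not. The median log2 change was 0.22, beside 0.08 over all genes. In siControl the median was 0.435 for the members and 0.17 over all genes, of which 74.0% passed. Psme1 rose, from 62.5 and 68.0 RPKM to 91.9 and 91.1 (1.40-fold, limma adjusted p = 0.00591), while it fell in siControl. The interferon-response sum went the other way in these libraries, from 111 to 135 RPKM without dox to 54.9 to 58.6 with dox. The ATPase genes Psmc1 (112 and 115 RPKM to 148 and 156, 1.34-fold) and Psmc2 (77.8 and 82.5 RPKM to 103 and 107, 1.31-fold) rose, and so did the alpha gene Psma1 (81.8 and 86.0 RPKM to 105 and 119, 1.34-fold). The groups did not overlap for any of these 4, nor for Psma2 and Psmb3, which did not pass. Psma5 rose by only 0.24 on the log2 scale and Psmb3, at 139 and 136 RPKM without dox and 146 and 154 with dox, did not pass. All 3 catalytic genes rose (0.21 to 0.27), and each of these calls ended in at least 1 omission of a library.

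Of the 18 calls, 6 were kept when any 1 library was left out (Psma1, Psma7, Psmc1, Psmc2, Psmd13 and Psme1). The count was 10 without the first siMyc library without dox, 8 without the second, and 6 without the second siMyc library with dox. It was 5 after median-ratio scaling. Among the lists, 1 of 6 assembly factors rose (Psmg1, log2 change 0.31), as did 5 of 9 proteasome-bound factors (Fbxo7 0.89, Psmf1 0.63) and 5 of 9 p97 genes (Nsfl1c 0.35, Ubxn4 0.33). Of the regulators 3 rose and 1 fell (Nfyc 0.51, Nfe2l2 0.43), of the ubiquitin and shuttle genes 1 rose and 1 fell (Ubqln1 0.24, Ubqln2 -0.42), and among the immune forms Psmb9 fell (-0.61). Psmb9 was low throughout, at 1.36 and 1.49 RPKM without dox and 0.379 and 0.838 with dox. Psmb8 had a similar change (-0.62, mean 6.01 to 3.57 RPKM) and did not pass.

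In the cells with siGcn5, 26 members rose with dox and 2 fell, where 58.4% of all genes passed, 36.0% as higher and 22.4% as lower. The median log2 change was 0.27, beside 0.08 over all genes. All 7 tested alpha genes rose. Psmd7 went from 77.4 and 89.1 RPKM to 123 and 154 (1.67-fold, limma adjusted p = 0.000243), Psme3 from 44.4 and 45.1 to 64.2 and 71.5 (1.52-fold, limma adjusted p = 0.000123), Psma4 from 92.7 and 110 to 136 and 167 (1.50-fold, limma adjusted p = 0.00134) and Psme4 from 16.2 and 20.6 to 25.8 and 28.1 (1.47-fold, limma adjusted p = 0.00216). None of the 4 overlapped between the groups. Psme1 and Psme2 fell (log2 changes -0.53 and -0.43). The call of Psme2 ended when 1 library was left out (limma adjusted p = 0.28 without the second siGcn5 library with dox). Without that library 18 members passed, and 16 did after median-ratio scaling. Of the 26 higher calls 17 were kept in every omission of 1 library, and that of Psma1 was not. Of the assembly factors 4 of 6 rose (Psmg3 0.82, Psmg1 0.65), of the proteasome-bound factors 6 of 9 (Uchl5 1.39, AI314180 0.45), and 1 of 9 p97 genes (Faf1 0.28). Of the regulators 2 rose and 1 fell (Nfe2l2 0.47, Nfe2l1 -0.51), and of the ubiquitin and shuttle genes 5 rose and 4 fell (Ubqln4 0.56, Ubqln2 -0.44). Psmb8 and Psmb9 fell (-1.14 and -0.68) and Psmb10 rose (0.65), with Psmb9 at low means of 3.49 RPKM without dox and 1.83 with dox.

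The difference between these responses was tested as an interaction. For siMyc against siControl, 16 members had a lower response to dox and 2 a higher one, where 54.1% of all genes passed, 24.8% as higher and 29.3% as lower. The response was lower by 0.75 on the log2 scale for Psma5 (SE 0.11, limma adjusted p = 0.000467) and by 0.82 for Psme3 (SE 0.11, limma adjusted p = 0.000205). It was higher by 1.04 for Psme1 (SE 0.16, limma adjusted p = 0.000522) and by 1.13 for Psme2 (SE 0.21, limma adjusted p = 0.00147). All 14 core genes had a lower estimate, of which 7 passed, and 7 of 17 genes of the 19S particle passed as lower. The calls of Psme1 and Psme2 and 5 of the 16 lower calls were kept when any 1 library was left out. The count was 8 without the first siControl library without dox, 9 without the first siMyc library with dox and 11 without the second siControl library with dox. After median-ratio scaling 2 were higher and 5 lower, and after quantile normalization 3 higher and 11 lower.

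For siGcn5 against siControl, 7 members had a lower response and none a higher one (limma). At an unadjusted p under 0.05, 1 was higher in limma and 1 with voom on the recovered reads, where none was higher after adjustment. Of all genes 25.9% passed, 11.4% as higher and 14.5% as lower. The largest member differences were Psma5 (lower by 0.50, limma adjusted p = 0.0129), Psme3 (0.43, limma adjusted p = 0.0181), Psma1 (0.39, limma adjusted p = 0.0275) and Psma7 (0.36, limma adjusted p = 0.0314). None of the 7 calls was kept in every such omission. Leaving out the first or the second siControl library without dox gave 0 and 2 calls, either siControl library with dox 3 and 0, either siGcn5 library without dox 1 and 3, and the first siGcn5 library with dox 1. In the omissions that gave 0, limma had 6 members lower and 2 higher, and 9 lower and 1 higher, at an unadjusted p under 0.05. After median-ratio scaling 1 was lower, and after quantile normalization 2 were higher and 3 lower.

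The effect of siMyc was then read at each state. Without dox it was small: 6 members fell and none rose (limma; at an unadjusted p under 0.05, 12 were lower and none higher, and voom on the recovered reads also gave 6 lower), where 23.5% of all genes passed, 12.8% as higher and 10.7% as lower. The members that fell were Psma1, Psma5, Psma7, Psmb3 and Psmb6 of the core and the ATPase Psmc2. Psma1 was at 100 and 106 RPKM in siControl and 81.8 and 86.0 in siMyc (0.813 of siControl, limma adjusted p = 0.0216). Psmb3 was at 164 and 173 against 139 and 136 (0.816, limma adjusted p = 0.0226), Psmb6 at 116 and 124 against 98.3 and 97.6 (0.817, limma adjusted p = 0.0168) and Psma5 at 95.4 and 104 against 80.7 and 85.0 (0.833, limma adjusted p = 0.0414). The 2 groups did not overlap for these 4 genes. Psmb7 did not pass (178 and 189 against 160 and 158 RPKM, limma adjusted p = 0.0551, or 0.049 over the genes with a mean RPKM of at least 5), nor did Psmb5, whose groups overlapped (98.2 and 96.2 against 101 and 92.3 RPKM).

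None of the 6 calls was kept in every omission of 1 library: no member passed without either siControl library or without the first siMyc library, and 1 passed without the second. In the 3 omissions that gave 0, limma had 4 to 12 members lower, and none or 1 higher, at an unadjusted p under 0.05. The medians were -0.18 for the core and -0.13 for the 19S genes, beside 0.02 over all genes. Of the assembly factors 3 of 6 fell (Psmg1 -0.51, Psmg4 -0.47), of the ubiquitin and shuttle genes 5 of 12 fell and 1 rose (Rps27a -0.68, Ubqln4 -0.60), and of the regulators 2 fell and 1 rose (Nfyc -0.31, Ddi2 -0.30). Faf2 of the p97 list (0.33) and Fbxo7 of the bound factors (0.52) rose. Of the immune forms Psmb9 (0.62, from a low mean of 0.573 to 1.42 RPKM) and Psmb10 (0.59) rose.

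With dox, siMyc lowered most of the particle. In the dox-treated cells 27 of 38 members were lower with siMyc and 4 were higher: 12 of 14 core genes and 12 of 17 genes of the 19S particle fell, together with Psmd9, Psme3 and Psme4, while Psmd5, Psmd8, Psme1 and Psme2 rose. Of all genes tested 74.9% passed in this comparison, 37.7% as higher and 37.1% as lower, so the share of members called was near that of all genes, and the split by direction was not. The median log2 change was -0.46 for the core and -0.34 for the 19S genes, beside 0.02 over all genes. The same direction held after median-ratio scaling (-0.38 and -0.27) and quantile normalization (-0.36 and -0.25).

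Psma5 was at 192 and 207 RPKM in siControl with dox and 93.5 and 103 in siMyc with dox, 0.494 of siControl (log2 change -1.01, SE 0.08, limma adjusted p = 1.69e-06). Both siMyc libraries with dox thus lay within the range of the siControl libraries without dox or just below it. Psmb3 was at 294 and 278 RPKM against 146 and 154, 0.525 of siControl (log2 change -0.92, SE 0.08, limma adjusted p = 2.37e-06). Among the catalytic genes, Psmb7 and Psmb6 fell. Psmb7 was at 269 and 280 RPKM against 182 and 196 (0.688, limma adjusted p = 3.96e-05) and Psmb6 at 160 and 151 against 113 and 124 (0.762, limma adjusted p = 0.00058). Psmb5 did not pass, although its groups did not overlap (134 and 122 against 111 and 114 RPKM, limma adjusted p = 0.0515), and it passed without the second siControl library with dox (limma adjusted p = 0.037). The other core gene that did not pass was Psmb1 (-0.10).

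In the 19S particle, the lid genes Psmd7 (189 and 198 RPKM against 112 and 121, log2 change -0.73), Psmd3 (-0.63) and Psmd12 (-0.60) fell most. Among the ATPases 4 of 6 fell and Psmc3 and Psmc4 did not pass. Psmd8 went the other way, at 225 and 238 RPKM in siControl and 298 and 305 in siMyc (log2 change 0.38), and did not overlap. Psmd6 and Psmd13 of the lid did not pass.

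Psme2 was at 52.1 and 53.5 RPKM in siControl with dox and 130 and 127 in siMyc with dox, a 2.44-fold higher level (log2 change 1.27, SE 0.15, limma adjusted p = 2.35e-05). Psme1 was at 36.9 and 38.8 against 91.9 and 91.1 RPKM, 2.42-fold higher (log2 change 1.25, SE 0.11, limma adjusted p = 3.94e-06). Both were above every siControl library, with or without dox. The interferon-response sum was 54.9 to 58.6 RPKM in siMyc with dox, above the 10.0 to 11.3 of siControl with dox and below the 66.5 to 74.3 of siControl without dox. Its part was not tested. Psme3 moved against its relatives, from 88.6 and 96.7 RPKM to 50.4 and 55.4 (log2 change -0.80).

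Of the 31 calls, 24 of the lower and 3 of the higher ones were kept when any 1 library was left out, while Psma4, Psmc6, Psmd14 and Psmd5 lost theirs in at least 1 omission. In the list of assembly factors 5 of 6 fell, as most of the core did, and 1, Akirin2, rose (29.7 to 34.3 RPKM). Psmg4 went from 33.7 to 10.1 RPKM (log2 change -1.64) and Psmg1 from 46.9 to 19.3 (-1.24). Of the bound factors 6 of 9 fell and 2 rose (Uchl5 -1.58, Fbxo7 0.58), and of the ubiquitin and shuttle genes 5 fell and 3 rose (Ubqln4 -1.69, Rps27a -1.06). The regulators split, with 4 lower and 3 higher. Nfyb, a CCAAT-binding subunit, fell (-1.07), and Nfe2l1 rose from 45.3 to 95.8 RPKM (1.06), the reverse of its change with dox in siControl. In the p97 list 4 rose and 2 fell (Faf2 0.70, Ubxn4 0.53). Psmb8 rose (1.59) and Psmb10 fell (-1.30), each the reverse of its response to dox in siControl. The comparison shares the siControl libraries with dox with that response, so the opposite signs are not independent.

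**Figure D3:**
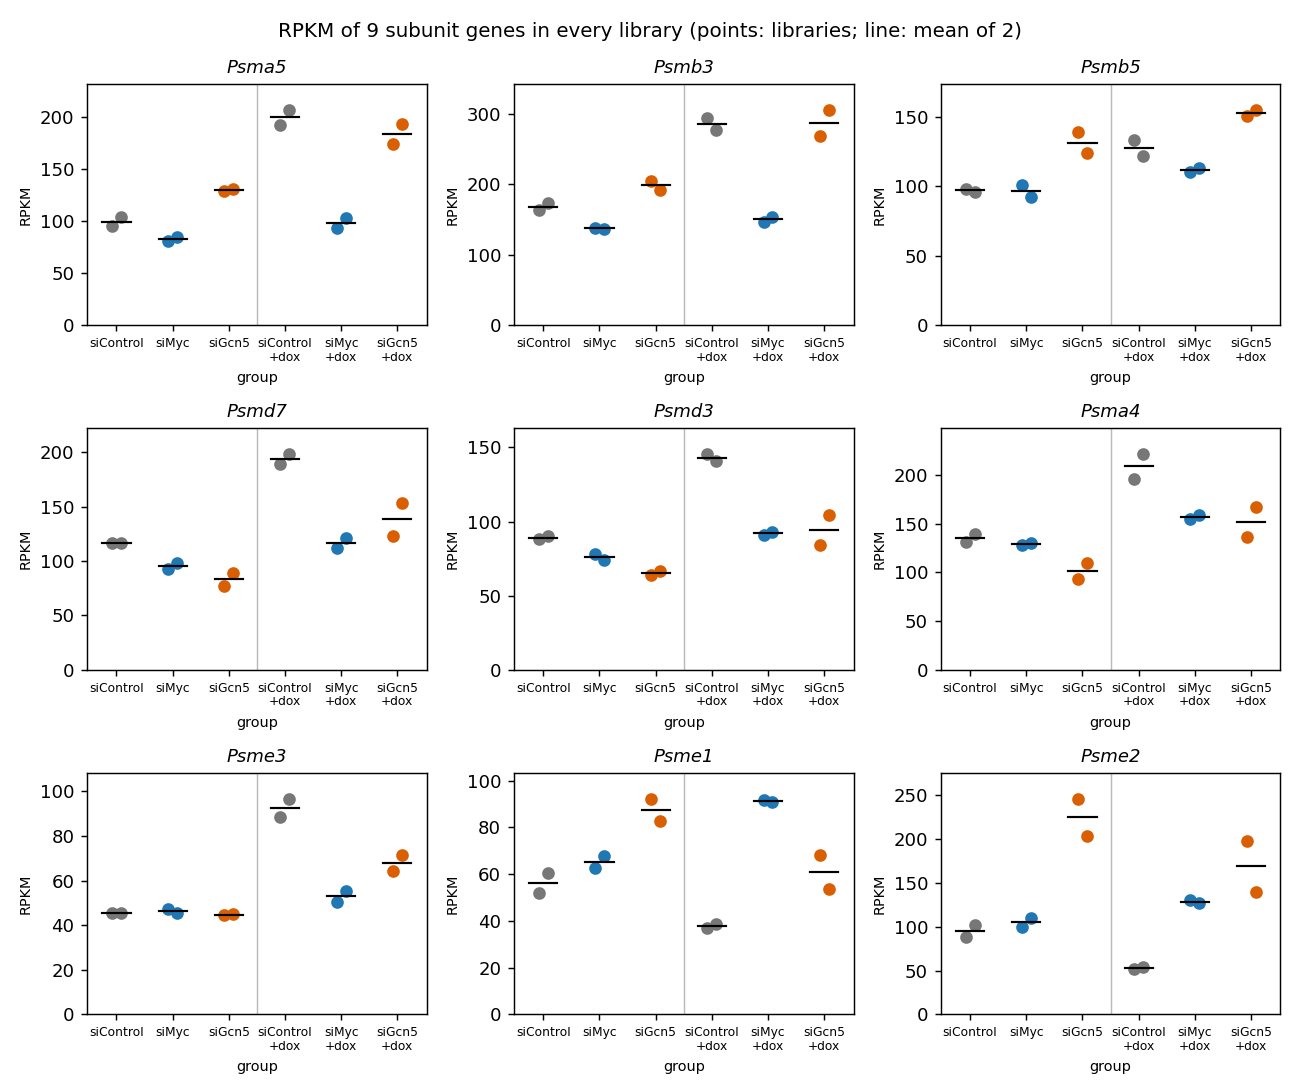
RPKM (vertical axis, from 0) of 9 subunit genes in every library (points; line: mean of 2) of the 6 groups. Psma5, Psmb3, Psmd7 and Psme3 are highest or near highest in siControl with dox, Psme1 and Psme2 are lowest there, and Psmd3, Psmd7 and Psma4 are lower with siGcn5 than with siControl in both states.

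The effect of siGcn5 was read in the same way. Without dox 10 of 14 core genes rose and 1, Psma4, fell, whereas in the 19S particle 5 genes rose and 4 fell. In all 19 members rose and 6 fell, where 57.3% of all genes passed, 36.9% as higher and 20.4% as lower. The medians were 0.30 for the core and -0.07 for the 19S genes, beside 0.12 over all genes, and the log2 changes of the 2 groups overlapped (-0.41 to 0.43 and -0.48 to 0.39). After median-ratio scaling the median of all genes was 0.01, the members split into 10 higher and 10 lower, the core into 5 higher and 1 lower and the 19S genes into 1 higher and 7 lower. After quantile normalization 16 members were higher and 8 lower. The balance of higher and lower calls among the 19S genes thus depended on the scaling, while the core median lay above the 19S median under both (medians of 0.16 and -0.22 after median-ratio scaling, 0.25 and -0.11 after quantile normalization).

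All 3 catalytic genes rose without dox. Psmb5 was at 98.2 and 96.2 RPKM in siControl and 139 and 124 in siGcn5 (1.35-fold, limma adjusted p = 0.00103). Psmb6 was at 116 and 124 against 168 and 156 RPKM (1.35-fold, limma adjusted p = 0.000616) and Psmb7 at 178 and 189 against 247 and 234 (1.31-fold, limma adjusted p = 0.000806). In each the siGcn5 libraries lay above both siControl libraries. The base chaperone Psmd9 was at 9.67 and 10.4 RPKM against 17.2 and 15.4 (1.63-fold, limma adjusted p = 0.000254). Psmd7 of the lid fell, from 116 and 117 RPKM to 77.4 and 89.1 (0.714, limma adjusted p = 0.00268), with Psmd3, Psmc3, Psmc4 and the activator Psme4.

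Psme2 was at 88.1 and 102 RPKM in siControl and 246 and 204 in siGcn5 without dox, 2.36-fold higher (log2 change 1.23, SE 0.15, limma adjusted p = 9.83e-05). Psme1 was at 51.9 and 60.5 against 92.4 and 83.0 RPKM, 1.56-fold higher (log2 change 0.64, SE 0.11, limma adjusted p = 0.000953). The library with more Psme2 and Psme1 was the same one. The interferon-response sum was 66.5 to 74.3 RPKM in siControl and 151 to 311 in siGcn5, so its 2 siGcn5 libraries also differed by more than the siControl libraries did. Its part in the result was not tested. All 3 tested immune forms rose: Psmb8 by 1.60, Psmb10 by 1.54 on the log2 scale, and Psmb9 from a low level. The share of Psmb8 in the sum with Psmb5 was 10.5% and 7.59% in siGcn5 without dox, against 3.49% and 3.65% in siControl.

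The pathway lists rose in part without dox: 4 of 6 assembly factors (Akirin2, which brings proteasomes into the nucleus, 0.58, and Psmg4 0.57), 6 of 9 bound factors with 2 lower (Fbxo7 0.71, Psmf1 0.66), and 5 of 9 p97 genes (Ubxn4 0.68, Nploc4 0.55). Of the regulators 6 rose and 1 fell (Hsf2 0.80, Hsf1 0.71). Of the ubiquitin and shuttle genes 4 rose and 1 fell. Sqstm1 went from 186 to 387 RPKM (log2 change 1.05) and the polyubiquitin gene Ubb from 324 to 628 (0.95). Of the members, 14 of 19 higher calls and 2 of 6 lower calls, those of Psmd3 and Psmd7, were kept when any 1 library was left out.

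With dox, genes of the cap were more often lower than higher with siGcn5, and the median of the core was close to 0. There were 9 higher and 12 lower members, where 56.3% of all genes passed, 31.4% as higher and 24.9% as lower. The share of members called was thus near that of all genes. In the core 3 rose and 1 fell, with a median of -0.01, and in the 19S particle 2 rose and 9 fell, with a median of -0.23, beside 0.05 over all genes. Of the 9 lower calls in the 19S particle, those of Psmd2, Psmd3 and Psmd7 were kept when any 1 library was left out, and those of Psmc1, Psmc3, Psmc4, Psmd1, Psmd6 and Psmd12 were not. Over all members 5 of 12 lower and 3 of 9 higher calls were kept. After median-ratio scaling 3 members were higher and 13 lower, and after quantile normalization 10 were higher and 12 lower. Psmd3, a lid subunit, was at 146 and 141 RPKM in siControl and 84.3 and 104 in siGcn5 (0.659, limma adjusted p = 0.000366), and Psmd7 was at 189 and 198 against 123 and 154 (0.715, limma adjusted p = 0.00279). Neither overlapped between the groups.

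Among the catalytic genes, Psmb5 was at 134 and 122 RPKM in siControl and 151 and 155 in siGcn5 (1.20-fold, limma adjusted p = 0.0169) and Psmb7 at 269 and 280 against 304 and 318 (1.13-fold, limma adjusted p = 0.0463). Psmb6 did not pass (160 and 151 against 171 and 169 RPKM, limma adjusted p = 0.167). The call of Psmb5 ended without the second siControl library with dox (limma adjusted p = 0.125) or without the second siGcn5 library with dox (limma adjusted p = 0.0615), and that of Psmb7 without any 1 of the 4 libraries (limma adjusted p from 0.0703 to 0.177). The count of members called was 10 without the second siControl library with dox and 11 without the first siGcn5 library with dox.

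Psme2 was at 52.1 and 53.5 RPKM in siControl with dox and 198 and 139 in siGcn5 with dox, 3.19-fold higher (log2 change 1.64, SE 0.15, limma adjusted p = 3.47e-05). Psme1 was at 36.9 and 38.8 against 68.2 and 53.6 RPKM (1.61-fold, limma adjusted p = 0.000814). Again 1 siGcn5 library was the higher for both, and the interferon-response sum there spanned 48.5 to 167 RPKM. Psmb8 rose (log2 change 2.06), with 4.87% and 2.26% of its pair, and Psmb9 rose (0.85, from a low mean of 0.548 to 1.83 RPKM). Of the assembly factors 2 rose and 2 fell (Akirin2 0.40, Psmg4 -0.39), and of the bound factors 1 rose and 1 fell (Psmf1 0.22, Uchl5 -0.76). In the p97 list 4 rose and 1 fell (Ubxn4 0.66, Faf2 0.50), of the regulators 3 rose and 2 fell (Ngly1 0.77, Nfyc -0.51), and of the ubiquitin and shuttle genes 3 rose and 2 fell (Sqstm1 1.56, Ubb 0.46).

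The siGcn5 comparisons without and with dox share no library. Of the 19 members higher without dox, 8 were also higher with dox (Psma2, Psmb5, Psmb7, Psmc2, Psmd9, Psmd10, Psme1 and Psme2), 11 did not pass with dox and none was lower. All 6 members lower without dox were also lower with dox (Psma4, Psmc3, Psmc4, Psmd3, Psmd7 and Psme4). Of these 14, only Psmd3, Psmd7, Psmd10, Psme1 and Psme2 kept both calls when any 1 library was left out. For siMyc, the 6 members lower without dox were all lower with dox, where 27 of all 38 members were lower. The share of all genes called in both states is not given here, so no weight is put on these joint counts.

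The mean RPKM over the 14 core genes and over the 17 genes of the 19S particle sets the 2 particles side by side within each library. The core mean divided by the 19S mean was 1.26 and 1.27 in siControl without dox and 1.40 and 1.38 with dox. In siMyc it was 1.21 and 1.20 without dox and 1.18 and 1.21 with dox. In siGcn5 it was 1.57 and 1.48 without dox and 1.58 and 1.54 with dox, above all 8 other libraries. This ratio is taken within a library and so is the same under any scaling of the library as a whole. With 2 libraries a group it was given no test.

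**Figure D4:**
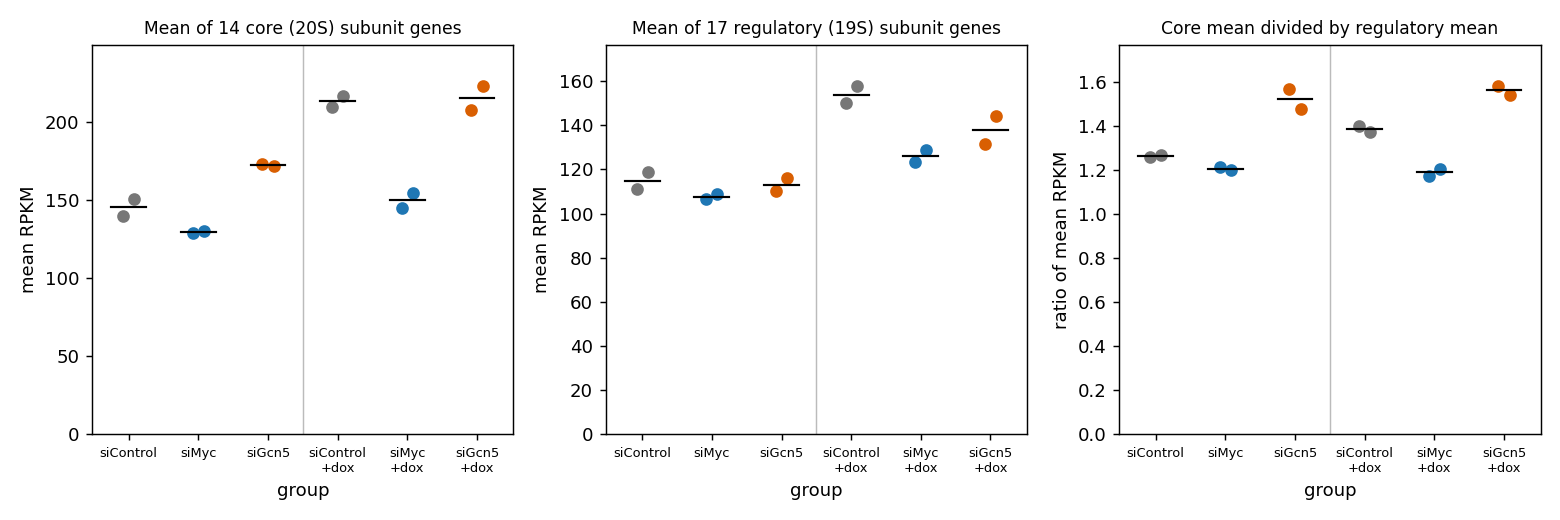
Mean RPKM of the 14 core genes (left), of the 17 genes of the 19S particle (middle) and their ratio (right) in every library (points; line: mean of 2) of the 6 groups, with all axes from 0. The 4 siGcn5 libraries have ratios of 1.48 to 1.58, above the other 8 libraries, whose ratios run from 1.18 to 1.40.

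A ratio of the 2 partners of the PA28 ring was read the same way. Psme2 divided by Psme1 was 1.70 and 1.69 in siControl without dox and 1.41 and 1.38 with dox, and 1.60 and 1.62, then 1.42 and 1.40, in siMyc. In siGcn5 it was 2.66 and 2.45 without dox and 2.90 and 2.60 with dox. In the siMyc cells with dox both partners were thus higher than in siControl at about the same ratio, and in the siGcn5 cells Psme2 was raised more than Psme1.

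The knockdowns were also set against each other directly. Without dox 19 members were lower in siMyc than in siGcn5 and 2 were higher, where 58.7% of all genes passed, 22.2% as higher and 36.5% as lower. The largest differences were in Psme2 (99.8 and 110 RPKM in siMyc, 246 and 204 in siGcn5, log2 difference -1.09), Psmd9 (9.95 and 8.70 against 17.2 and 15.4 RPKM, -0.75), Psmb6 (98.3 and 97.6 against 168 and 156 RPKM, -0.72) and Psma5 (80.7 and 85.0 against 128 and 131 RPKM, -0.64). In the core 10 of 14 were lower, with a median of -0.51, and in the 19S particle 5 of 17, with a median of 0.01, beside -0.11 over all genes. After median-ratio scaling 8 members were higher and 18 lower, and after quantile normalization 8 and 19. The core then had 10 lower and 1 higher under both, while the 19S genes had 5 higher and 4 lower, or 5 higher and 5 lower.

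With dox 22 members were lower in siMyc than in siGcn5 and 1, Psme1, was higher, where 65.9% of all genes passed, 27.3% as higher and 38.6% as lower. Psmb3 was at 146 and 154 RPKM in siMyc and 269 and 306 in siGcn5 (log2 difference -0.93), Psma5 at 93.5 and 103 against 174 and 193 (-0.89), Psmd9 at 9.20 and 9.21 against 16.6 and 18.1 (-0.85) and Psmb7 at 182 and 196 against 304 and 318 (-0.71). None of the 4 overlapped between the groups. In the core 12 of 14 were lower, with a median of -0.53, and in the 19S particle 7 of 17, with a median of -0.12, beside -0.09 over all genes. After median-ratio scaling 6 members were higher and 16 lower, and after quantile normalization 4 and 20. Of these the 19S genes made up 4 higher and 4 lower, or 3 higher and 6 lower, and the core 11 or 12 lower and none higher.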

How the data were processed

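Total RNA was sequenced in 12 libraries, 6 groups of 2. Stranded libraries were made after rRNA depletion, per the labels' protocols. The authors deposited 1 table per library of RPKM values. Per the submitters' processing notes the build was mm9 and the tools were Bowtie 0.12.8, TopHat2 2.0.9, edgeR, HTSeq and affy; which of them made the RPKM values is not given in the sources used here. Genes that share sequence with processed pseudogenes are uncertain to the extent that reads were split between copies, which was not examined for any member.

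Groups were taken from the labels. Values were tested as log2(RPKM + 1) with limma 3.58.1 (R 4.3.3, trend option) over all 12 libraries with a mean per group, for the 13175 genes with at least 1 RPKM in at least 2 libraries. The 11 comparisons were each adjusted by Benjamini-Hochberg over all genes, at 0.05. The fit had 6 residual degrees of freedom. Reads per gene were recovered from the RPKM steps (20788 of 20788 genes with a value came out whole within 0.05 read) and gave the depths and an alternative fit. No intervals for single libraries were computed.

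The 4 members with the largest called change are named in each comparison, with the catalytic genes in 5 of them, every other member by role, and up to 2 called genes of each pathway list beside its count. The members and lists were chosen with earlier results of these data known. Replicate libraries were not copies: a chi-square test of the recovered reads of each replicate pair gave 39.5 to 117 per degree of freedom.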

Additional observations from a re-analysis of the deposited data

Results flagged for a closer look

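Members whose response to dox differed from that in siControl by a test of the difference itself (limma interaction term, adjusted over all genes) are listed as the response in the knockdown minus that in siControl, on the log2 scale. With siMyc, 2 of 38 members had a higher difference and 16 a lower one. Of all genes tested, 54.1% passed for siMyc, 24.8% as higher and 29.3% as lower. The 2 higher members were Psme1 at 1.04 and Psme2 at 1.13. In the core the difference was -0.34 for Psma2, -0.41 for Psma3, -0.75 for Psma5, -0.38 for Psma7, -0.33 for Psmb2, -0.63 for Psmb3 and -0.34 for Psmb7. In the 19S particle it was -0.28 for Psmc1, -0.30 for Psmc5, -0.32 for Psmd2, -0.40 for Psmd3, -0.30 for Psmd4, -0.44 for Psmd7 and -0.45 for Psmd12. It was -0.44 for the chaperone Psmd9 and -0.82 for the activator Psme3.

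With siGcn5 all 7 differences were negative: -0.39 for Psma1, -0.50 for Psma5, -0.36 for Psma7, -0.31 for Psmb6, -0.33 for Psmc5, -0.26 for Psmd13 and -0.43 for Psme3. Of all genes tested, 25.9% passed for siGcn5, 11.4% as higher and 14.5% as lower. Psma5, Psma7, Psmc5 and Psme3 passed for both knockdowns, which are compared with the same siControl libraries.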

How the results depend on the processing

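Counts of members called moved by over 1.5 times in these cases. For the dox response in siMyc, 18 became 5 with median-ratio scaling, 6 with quantile normalization and 6 to 13 when 1 library was left out. For the dox response in siGcn5, 28 became 16 with median-ratio scaling and 18 to 29 without 1 library. The siMyc effect without dox went from 6 to 0 to 1 without 1 library, and the siGcn5 effect with dox from 21 to 10 to 16. The change of the dox response by siMyc went from 18 to 7 with median-ratio scaling and 8 to 18 without 1 library, and that by siGcn5 from 7 to 1 with median-ratio scaling and 0 to 10 without 1 library. The cause was not tested. In the other 5 comparisons the count without 1 library was 33 to 36 for the dox response in siControl (35 with all), 28 to 30 for siMyc with dox (31), 17 to 23 for siGcn5 without dox (25), and 18 to 22 and 22 to 24 for siMyc against siGcn5 without and with dox (21 and 23). Psmb5 in siMyc without dox, which did not pass (-0.01), changed sign to 0.006 without the first siControl library and to 0.057 without the second siMyc library, and was -0.074 without the first siMyc library.

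The labels do not say that a replicate number marks a shared batch. Over the 15 pairs of groups the correlation of the deviations of same-numbered libraries from their group means was 0.0933 to 0.489, so each library correlated best with its own number, a hint from the data and not the design. With a replicate block, the siMyc effect without dox had 11 members called (Psmb7 among them, limma adjusted p = 0.0247, while Psmb5 passed in siMyc with dox at 0.0257), the change of the dox response by siGcn5 had 14, the dox response in siMyc 27 and the change of that response by siMyc 26. Apart from the first 2 of these, the counts with the block stayed within 1.5 times, as did all counts with a pseudocount of 0.1, without a filter, with a mean RPKM of at least 5 and with voom on the recovered reads. Of 670 alternative values for the 58 named results, 615 kept direction and call, 49 lost the call, 4 gained one and 2 changed sign. When 1 library is left out, the lone library of its group is assumed to vary like the other groups. Depth did not limit the members, since the shallowest library had 65550425 gene reads.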
